A study of Rattus norvegicus with 8 samples.

Results

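The genes examined were the immediate early transcription factors of the FOS, JUN and EGR families together with Atf3, taken as every array probe whose gene name equals Fos, Fosb, Fosl1, Fosl2, Jun, Junb, Jund, Egr1, Egr2 or Atf3. Of these 10 names 9 were carried by a probe, which makes 9 of 26204 gene names and 11 of the 30350 probes used, and no level of Fosb is given here. Ovary RNA from female rats was hybridised to 1-colour Agilent arrays, 4 labelled control and 4 labelled PMSG. The hormone, pregnant mare serum gonadotropin, was injected into 26-day-old rats at 50 IU, carried by an albumin phosphate buffer (0.2 ml). Control rats received the same volume of buffer without hormone, subcutaneously, and ovaries of both groups were removed 48 h later, at 28 days. The labels name no strain, do not say whether an array holds 1 animal or several, and do not state that replicates are separate animals, so p-values measure the spread between arrays, which may be technical.

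Immediate early genes are switched on within minutes of a stimulus, without new protein synthesis, and their transcripts are short-lived. FOS and JUN proteins pair through leucine zippers to form AP-1, which binds DNA at AP-1 sites; EGR proteins bind GC-rich sites through zinc fingers, and ATF3 is a stress-responsive leucine zipper factor. In the ovary, gonadotropins acting through cyclic AMP and MAP kinases induce several of these genes in granulosa cells, and EGR1 and AP-1 factors take part in the preovulatory response.

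Both EGR members, Egr1 and Egr2, and 1 of 3 JUN members were lower in arrays labelled PMSG. Of 3 measured FOS members 1 was lower by a borderline difference. Egr2 was 7.86-fold lower in arrays labelled PMSG than in arrays labelled control, Junb 2.64-fold, Egr1 2.02-fold and Fosl2 1.45-fold. The size for Egr2 rests on PMSG signals near background and was smaller than that for Junb after another background correction. Fos, Fosl1, Jun, Jund and Atf3 did not pass. Nor did Egr3 and Egr4, EGR relatives that were not among the members. Thus 4 of 9 members were called, all 4 lower, where 34.2% of the 25303 probes tested were called in either direction and 16.6% were called lower. The values of the same 4 members did not overlap between labels. This held for 36.6% of all probes tested in either direction, and for 18.6% with PMSG lower. Egr2, Junb and Egr1 were called and at least 2-fold lower, as were 4.6% of all probes tested. The median log2 difference was -0.54 over the 9 members and 0.11 over all probes tested. In whole ovary, fewer cells of a type and less RNA per cell cannot be told apart.

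Every direction follows the sample titles. Lhcgr, Star and Cyp11a1, gonadotropin-responsive genes of steroid-producing cells, were lower in arrays labelled PMSG (log2 differences -1.93, -2.75 and -3.36), and Amh, a product of small growing follicles, was higher (3.03), which is the opposite of the direction generally known. The groups are therefore called by their labels throughout. Whether the labels were exchanged was not tested; an exchange would turn the sign of every difference given here. Markers of granulosa cells (7 tested), theca cells (4) and oocytes (7) were well above background on all 8 arrays. The 75th percentile of the signal ran from 769 to 1103 over the arrays, and 80.8% to 84.5% of probes were well above background. Summed marker levels moved with the labels for some cell types and overlapped for others. All 7 oocyte markers were higher in arrays labelled PMSG, with summed linear levels (signal over the array's 75th percentile) of 11.3 to 24.8 against 3.22 to 5.85. Of 7 markers of luteinising cells 6 were lower, with sums of 118.3 to 177.9 against 281.0 to 314.2. Of 7 leukocyte markers 4 were higher (sums of 11.2 to 12.6 against 6.99 to 8.74). Summed granulosa markers overlapped (72.0 to 98.1 against 79.9 to 137.3; of 7 tested, 2 higher and 2 lower). Summed endothelial markers were lower (17.0 to 18.5 against 20.9 to 24.4; 4 of 7 lower, 1 higher) and summed oviduct markers higher (23.9 to 34.0 against 13.9 to 18.5; 4 of 6 higher). Such sums weigh the brightest gene most, which was Kdr among endothelial and Krt18 among oviduct markers. Summed levels of the other lists, theca, fibroblast, adipocyte and red cell markers, overlapped between the labels. Called among them were 3 of 4 theca and 2 of 6 fibroblast markers, higher. So were 1 of 5 adipocyte markers, higher, and 1 of 4 red cell markers, lower. The part of these shifts in the members' differences was not tested.

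Promoter sequences of the EGR and JUN members that differed, and of Jund, which did not pass, are given because the EGR pair shares a motif arrangement. They are RefSeq windows of the build GRCr8, 250 bases directly before the annotated start, 5′ to 3′ on the gene's strand, at chr18:26736828-26737077 (plus strand), chr20:21054442-21054691 (minus), chr19:40080876-40081125 (plus) and chr16:18769772-18770021 (minus). Capitals mark the motifs searched: the CArG box bound by serum response factor, the cyclic AMP response element TGACGTCA, its short form TGACG or, on the other strand, CGTCA, and the EGR sites GCGTGGGCG and GCGGGGGCG.
Egr1: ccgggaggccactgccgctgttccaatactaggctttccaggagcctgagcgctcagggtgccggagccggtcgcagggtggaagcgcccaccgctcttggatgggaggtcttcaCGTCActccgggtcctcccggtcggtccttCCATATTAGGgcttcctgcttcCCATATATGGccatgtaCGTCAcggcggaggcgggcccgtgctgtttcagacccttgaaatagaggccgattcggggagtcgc
Egr2: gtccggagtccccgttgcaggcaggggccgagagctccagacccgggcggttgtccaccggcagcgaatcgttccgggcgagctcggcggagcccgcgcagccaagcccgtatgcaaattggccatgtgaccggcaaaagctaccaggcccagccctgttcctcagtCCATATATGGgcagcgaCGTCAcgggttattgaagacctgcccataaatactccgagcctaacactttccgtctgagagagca
Junb: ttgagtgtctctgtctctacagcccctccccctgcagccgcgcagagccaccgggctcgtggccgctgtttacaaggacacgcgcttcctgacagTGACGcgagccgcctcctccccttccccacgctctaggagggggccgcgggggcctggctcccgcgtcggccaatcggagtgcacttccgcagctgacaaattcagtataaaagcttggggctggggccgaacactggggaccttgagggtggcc
Jund: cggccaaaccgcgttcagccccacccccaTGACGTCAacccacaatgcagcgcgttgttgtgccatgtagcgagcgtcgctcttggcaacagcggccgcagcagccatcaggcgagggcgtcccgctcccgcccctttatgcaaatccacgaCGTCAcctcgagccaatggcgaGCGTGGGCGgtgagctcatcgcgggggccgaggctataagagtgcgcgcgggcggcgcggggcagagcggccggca

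Windows were matched for 7 of the 10 names (Fosb, Fosl1, Fosl2, Junb, Jund, Egr1 and Egr2), and motifs were searched on both strands of the full window, 250 bases before to 50 after the start. Egr1 and Egr2 carried a CArG box with the same letters, CCATATATGG, at the same place, from -83 to -74, and Egr1 had another, CCATATTAGG, from -105 to -96. Both also held CGTCA from -66 to -62. A CArG box was present in 1.64% of the 33469 windows in the table and in no other of the 7. The short element was found in 5 of the 7, Fosl1, Junb, Jund, Egr1 and Egr2, and in 21.2% of all windows. The full element TGACGTCA, which contains the short form, was found in Jund and in 1.83% of windows, and an EGR site in Fosl2, Jund and 3.20% of windows. The AP-1 sites TGAGTCA and TGACTCA were in none of the 7 and in 4.63% of windows. A match describes letters in a window and is not a measured binding site.

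Levels below are log2 processed signals minus the array's 75th percentile, in the order of arrays 1 to 4, and differences are PMSG minus control from limma, a moderated linear model, with Benjamini-Hochberg adjustment over all probes tested and a threshold of 0.05. Among the FOS family, Fos encodes the c-FOS partner of AP-1. Its levels were -3.04, -3.14, -2.71 and -2.53 in arrays labelled control and -2.54, -2.91, -3.13 and -3.45 in arrays labelled PMSG. The groups lay within each other, with the lowest value in PMSG array 4. The log2 difference was -0.15 with a 95% interval from -0.65 to 0.35 (limma adjusted p = 0.609), so a change of more than about 1.57-fold downward lies outside that interval. The array files, whose build is rn4, place this probe at bases 109561941 to 109562000 of chromosome 6.

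Fosl1, encoding FRA-1, a FOS relative without the strong activation domain of c-FOS, had a dim probe on chromosome 1, 208099035 to 208099094. Its levels were -6.05, -5.66, -6.35 and -5.50 in arrays labelled control and -6.13, -6.68, -7.82 and -8.13 in arrays labelled PMSG. It was well above background on 4 control-labelled arrays and on 1 labelled PMSG, array 1, and that array overlapped the control range. The log2 difference of -1.30 (95% interval -2.32 to -0.28) did not pass (limma adjusted p = 0.0528). Its size and call moved with the setting: quantile normalization (limma adjusted p = 0.0179) and median centring (0.0263) passed, whereas the deposited values gave -0.91 (0.391) and normexp background correction -0.05 (0.753). Leaving out PMSG array 1 also passed (0.0159), but none of the PMSG values then left is well above background. Without PMSG array 3, control array 2 or control array 4 the limma adjusted p was 0.118 to 0.126. Unscaled signals were at most 24.5, which is close to background.

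Fosl2, encoding FRA-2, was read by 2 probes that are unmapped in the array files. Their 60-base sequences are shown because they gave different calls for the same transcript.
Fosl2 probe 1: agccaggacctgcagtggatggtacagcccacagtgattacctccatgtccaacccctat
Fosl2 probe 2: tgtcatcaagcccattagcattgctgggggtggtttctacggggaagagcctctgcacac

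Fosl2 probe 2, the brighter, stood at -1.79, -1.87, -1.52 and -1.70 in arrays labelled control and at -2.10, -1.96, -2.34 and -2.64 in arrays labelled PMSG. The groups did not overlap, although PMSG array 2 came close to control array 2. This probe differed by -0.54 on the log2 scale, with an SE of 0.16 and a limma adjusted p of 0.0329. Fosl2 probe 1 gave -3.26, -3.53, -3.07 and -3.29 against -3.27, -3.41, -3.41 and -4.02, which overlapped, with a difference of -0.24 (95% interval -0.65 to 0.18, limma adjusted p = 0.332). The mean of the probes did not pass (-0.39, adjusted p = 0.104). The call on probe 2 was also lost without control array 1 (0.0618), control array 3 (0.0838), control array 4 (0.0771) or PMSG array 3 (0.0708), so the Fosl2 difference is a borderline one.

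In the JUN family, Jun encodes c-JUN, the main JUN partner of FOS. Its probe, on chromosome 5 from 115359410 to 115359469, gave -0.03, 0.33, 0.21 and 0.02 in arrays labelled control and 0.02, 0.39, 0.26 and 0.53 in arrays labelled PMSG. The groups overlapped almost fully, and the log2 difference was 0.17 (95% interval -0.15 to 0.49, limma adjusted p = 0.374). Jund encodes the JUN member that many cells express without a stimulus. It stood at 4.06, 4.32, 4.27 and 4.38 in arrays labelled control and at 4.28, 4.70, 4.44 and 4.14 in arrays labelled PMSG (chromosome 16, 19239707 to 19239766). The difference was 0.13 (95% interval -0.19 to 0.46, limma adjusted p = 0.489). Centring each array on its median, which moved the median of all probes from 0.11 to -0.05, gave -0.00058 for Jun and -0.04 for Jund.

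Junb, encoding a JUN protein that is a weaker activator than c-JUN, differed clearly from both relatives. Its levels in arrays labelled control, 3.35, 3.20, 3.37 and 3.43, lay close together (SD 0.09). In arrays labelled PMSG they were 1.90, 2.63, 1.31 and 1.88 (SD 0.54), all below the lowest control value, with array 2 highest. Junb thus differed by -1.40 on the log2 scale (limma adjusted p = 0.00336, SE 0.25), 2.64-fold lower with a 95% interval from 1.78 to 3.92. The probe, on chromosome 19 from 24833225 to 24833284, has 1 spot per array, so no spread between spots can be given. Its SD in the control label exceeded that of 24.7% of probes tested and its SD in the PMSG label that of 82.1%.

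Of the EGR family, Egr1 encodes an early zinc finger factor. Its brighter probe has 10 spots per array on chromosome 18 from 27347173 to 27347232. It gave 1.54, 1.38, 1.77 and 2.21 in arrays labelled control and 1.13, 0.94, 0.32 and 0.45 in arrays labelled PMSG. Every PMSG value lay below every control value. This probe differed by -1.02 on the log2 scale (limma adjusted p = 0.0125, SE 0.24). A dimmer probe at 27346058 to 27346117 on the same chromosome gave -2.46, -2.51, -2.04 and -1.79 against -2.73, -3.72, -3.30 and -3.45, again without overlap. It differed by -1.10 (SE 0.25, limma adjusted p = 0.00990), so both Egr1 probes gave a change of about the same size. The median SD between spots of the 10-spot probe on an array was 0.04, against SDs between arrays of 0.36 and 0.39 within the labels.

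Egr2, another zinc finger factor of the family, had the largest difference of any member on this scale. Its 10-spot probe on chromosome 20, 21883940 to 21883999, gave -2.95, -3.15, -3.05 and -2.40 in arrays labelled control. In arrays labelled PMSG the levels were -5.81, -5.42, -6.14 and -6.07. The groups lay more than 2 log2 units apart, with control array 4 and PMSG array 2 the highest of their labels. Egr2 differed by -2.98 on the log2 scale (limma adjusted p = 8.74e-05, SE 0.22), and 0.221% of all probes tested had a difference as low or lower. Unscaled signals were 119.1 to 209.6 in arrays labelled control and 10.9 to 24.0 in arrays labelled PMSG, where 0.56 to 1.00 of the spots were well above background. The PMSG signals are near background, and the size changed with the background treatment. With normexp and an offset of 50, which shrinks dim differences, it was -1.27, still past the threshold (limma adjusted p = 6.98e-05), and Junb, at -1.40, then had the larger difference.

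Atf3 tended the other way without passing. Its levels were -2.06, -2.13, -1.73 and -1.93 in arrays labelled control and -1.90, -1.47, -1.83 and -1.26 in arrays labelled PMSG. The groups overlapped, and the log2 difference was 0.34 (95% interval -0.04 to 0.73, limma adjusted p = 0.147). The array files place its probe on chromosome 13 from 107191582 to 107191614, a span of 33 bases for a 60-base probe. No annotation of the build rn4 was used here, so exons and untranslated regions were not assigned to any probe.

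**Figure D1:**
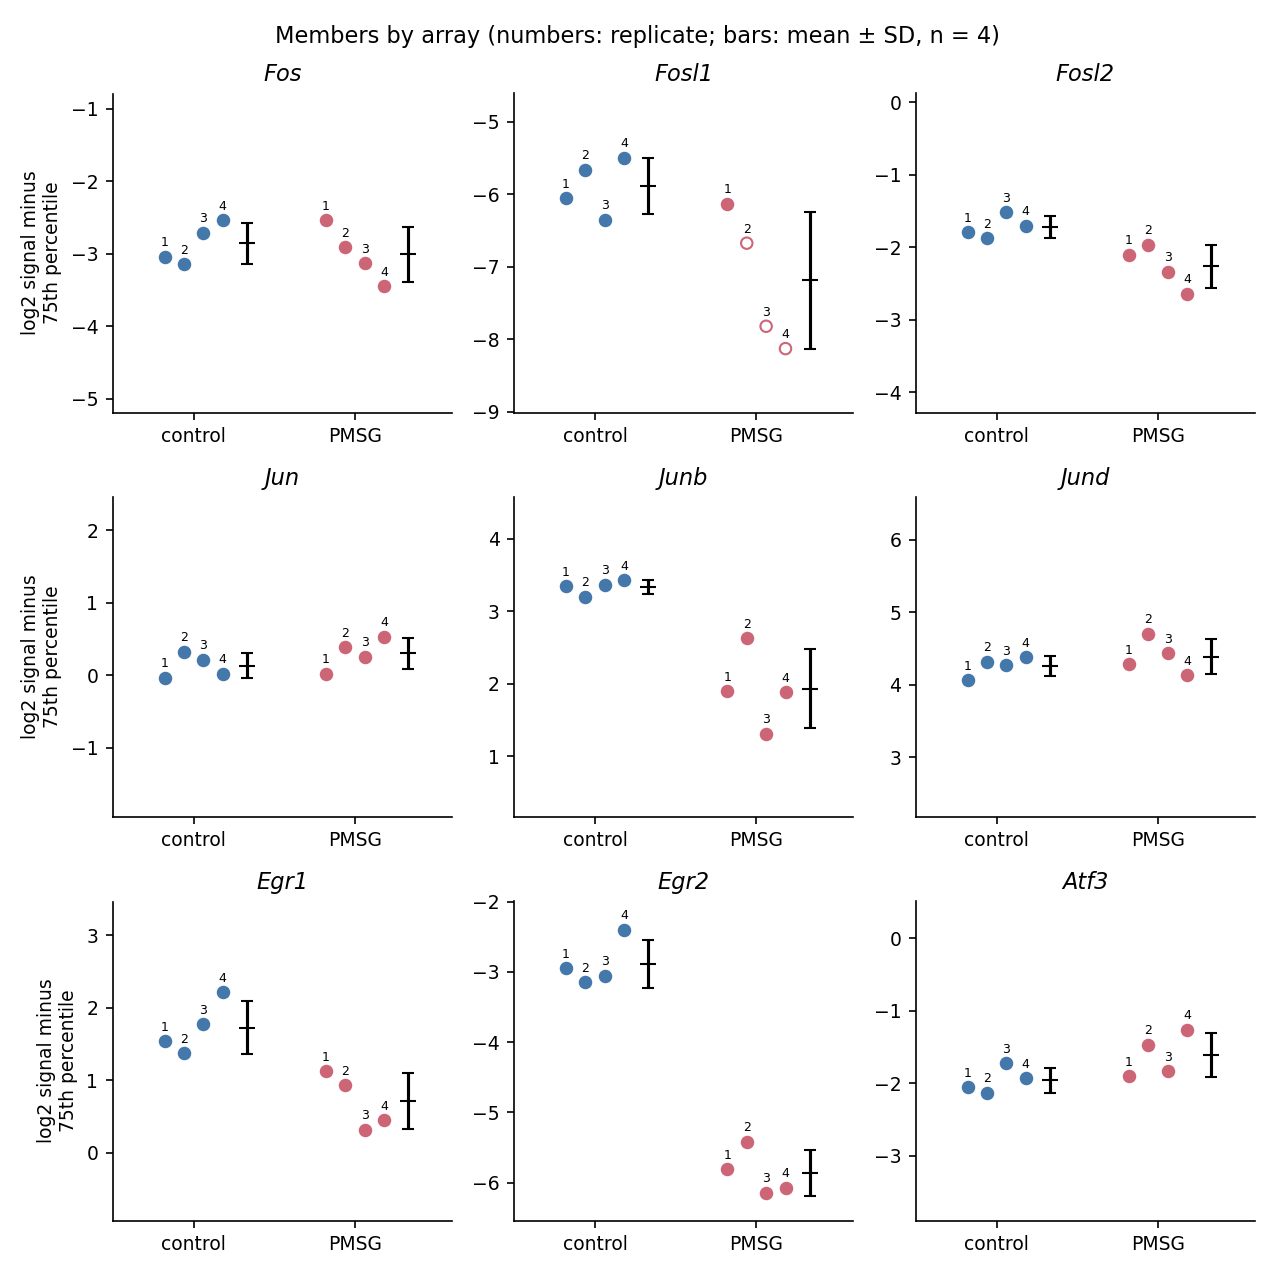
Levels of the 9 members on each array (vertical axes, log2 signal minus the array's 75th percentile, with a separate range in each panel), by label; numbers are replicates, open circles are arrays where the probe was not well above background, and bars are mean ± SD (n = 4). Egr2, Junb, Egr1 and Fosl2 do not overlap between labels, and 3 of 4 PMSG values of Fosl1 are not well above background.

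**Figure D2:**
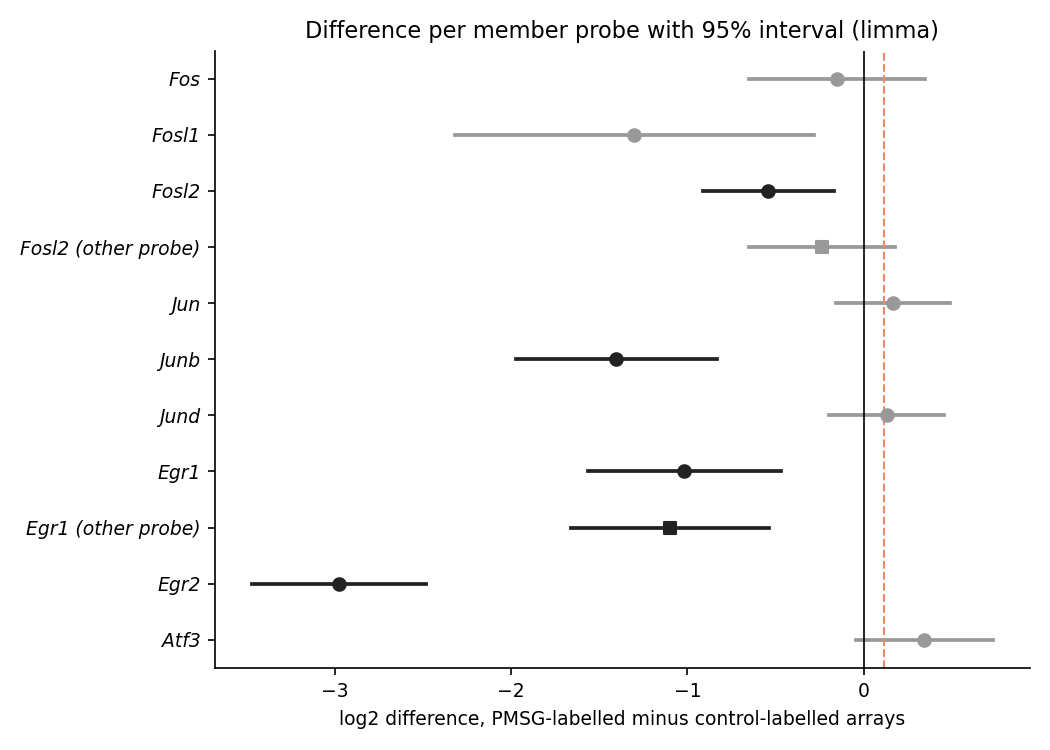
Log2 difference, PMSG-labelled minus control-labelled arrays, with its 95% interval for each of the 11 member probes (circles, the probe that stands for the gene; squares, the other probe; black, limma adjusted p under 0.05). The dashed line is the median over all probes tested, 0.11, and Egr2 at -2.98 lies farthest from it.

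The gap between relatives was measured within each array, where the scaling of the array cancels. Such differences were compared for 4 pairs chosen after the values had been seen, as a called member against a relative, so they are a description with no test. Under the control label Egr2 minus Egr1 was -4.61 ± 0.15 (SD, n = 4), and under the PMSG label -6.57 ± 0.25 (SD, n = 4), a shift of -1.96 (SE 0.15). This shift rests on Egr2 signals near background: after normexp background correction it was -0.28 (SE 0.21) and the labels overlapped. Junb minus Jun shifted by -1.57 (SE 0.29) and Junb minus Jund by -1.53 (SE 0.25). Neither Junb pair overlapped between labels, and the shifts were -1.57 and -1.53 after normexp correction too. Fosl2 minus Fos shifted by -0.39 (SE 0.15), with overlap. Both probes of a pair have their own response, so a shift does not show that the other gene stayed constant.

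**Figure D3:**
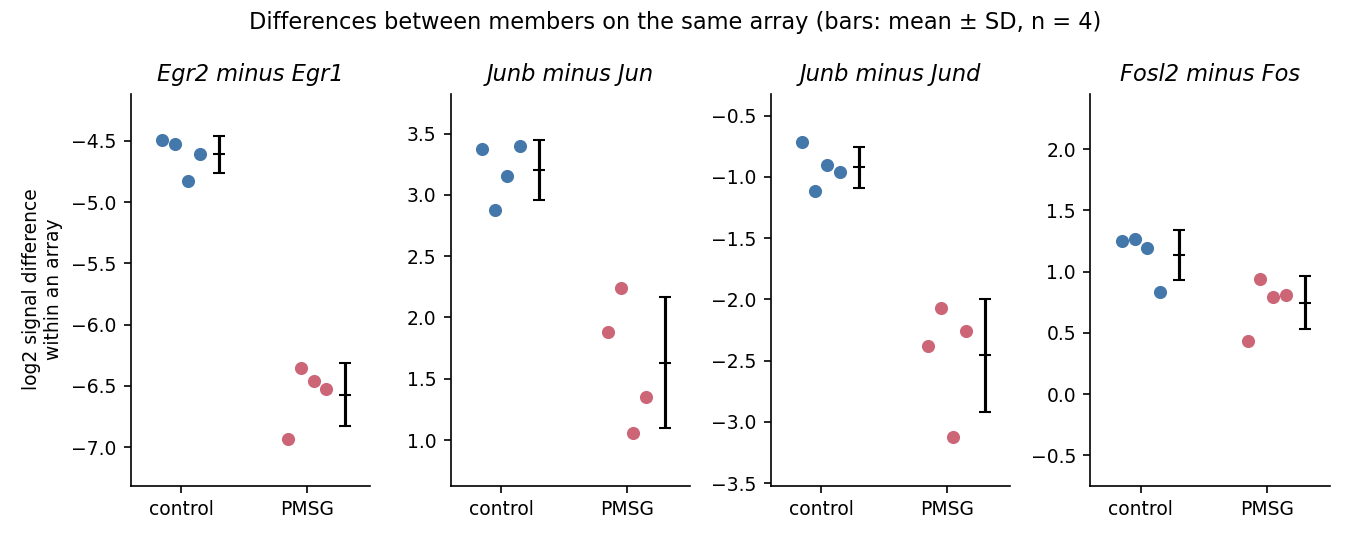
Log2 signal of 1 member minus that of another on the same array, for 4 pairs (vertical axes, log2 units, the same span in all panels), by label, with mean ± SD (n = 4). Egr2 minus Egr1, Junb minus Jun and Junb minus Jund are lower on every PMSG-labelled array than on any control-labelled one; for Egr2 minus Egr1 this was lost after normexp background correction.

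Control array 4 was the highest of its label for 6 of the 9 members and control array 2 the lowest for 6, against 21.0% and 25.5% of the 21926 genes tested. In arrays labelled PMSG, array 2 was highest for 4 members and array 4 lowest for 4, against 17.2% and 46.6% of all genes tested. The SD was larger in the PMSG label for 8 of the 9 members. The median SD over the members was 0.18 in the control label and 0.33 in the PMSG label, against 0.16 and 0.27 over all probes tested. Arrays also lay in both rows of the slide, with 2 arrays of each label in a row. Slide columns were not balanced in this way. Column 1 held PMSG arrays 1 and 2, column 2 held control arrays 1 and 2, and the other columns held 1 array of each label. The part of the slide column in the differences was not tested. Within row 1 and row 2 the differences were -3.01 and -2.94 for Egr2, -1.34 and -1.46 for Junb, and -1.17 and -0.87 for Egr1. For Fosl2 they were -0.36 and -0.72 on probe 2, and 0.0019 and -0.48 on probe 1, the dimmer.

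The genes around the members were taken from 6 lists, whose counts stand beside the 34.2% of all probes called (16.6% lower). Of 20 kinases and factors that switch immediate early genes on, 7 were lower and 1 was higher in arrays labelled PMSG. The median log2 difference was -0.10. The 40.0% called is near the 34.2% of all probes, but the 35% called lower stands against 16.6%. Mapk9, encoding the JUN kinase JNK2, differed by -1.13 on the log2 scale (limma adjusted p = 6.88e-04). Map2k1, encoding the ERK-activating kinase MEK1, differed by -0.97 (SE 0.12, limma adjusted p = 7.44e-04). The higher gene is RGD1560833 on the array, matched to Mkl2, a cofactor of serum response factor, through RefSeq. Its fitted log2 difference was 0.97 (SE 0.20, limma adjusted p = 0.00777), with 1 control-labelled array not well above background. Srf itself (0.21, limma adjusted p = 0.116) and Elk1 (-0.08, 0.739), which bind CArG boxes and their flanks, did not pass.

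Of 18 AP-1 partners and related leucine zipper factors, 6 were lower (33.3%), none was higher, and 12 did not pass, with a median of -0.27. Up to 2 were higher under other settings, 2 without PMSG array 4. Mafk and Mafg, small MAF proteins without an activation domain, had log2 differences of -1.03 (limma adjusted p = 0.0176) and -0.50 (0.00506). Batf3, which pairs with JUN proteins, differed by -0.52 (limma adjusted p = 0.0281). Creb1, which binds cyclic AMP response elements, was lower by a difference of -0.40 (0.0151).

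Among 16 feedback inhibitors and corepressors tested, 4 were lower and 1 was higher (31.2% called), with a median of -0.01. Dusp1, which inactivates MAP kinases, stood at -2.48, -2.94, -2.42 and -2.50 in arrays labelled control and at -4.36, -4.05, -4.42 and -4.96 in arrays labelled PMSG. The labels were separated by more than 1 log2 unit, and the difference was -1.86 (SE 0.21, limma adjusted p = 4.40e-04). Dusp6, an ERK-specific phosphatase, differed by -1.62 (SE 0.18, limma adjusted p = 4.49e-04). Nab1, a corepressor that binds EGR1 and EGR2, was at least 2.18-fold lower, with 1 PMSG-labelled array not well above background. Its relative Nab2 did not pass (0.15, limma adjusted p = 0.611). The count of 5 fell to 3 without control array 4 and to 2 after normexp background correction.

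Of 18 tested genes listed here as textbook AP-1 or EGR targets, 11 were lower (61.1%) and none was higher, with a median of -0.64. Whether any of them, Ereg included, is a target of the members in these ovaries was not tested. Under quantile normalization, with array weights, with the mean over probes or without PMSG array 3, 1 gene was higher. Cd44, a cell surface receptor counted as lower at -0.58, had 2 other probes with differences above 0. Ereg, which encodes the EGF-like ligand epiregulin, was at least 18.3-fold lower, and Mmp3, encoding stromelysin, at least 6.53-fold lower. Neither was well above background on any of the 4 arrays labelled PMSG. Here the bright mean is set against the dim arrays' own signal or their lowest spot well above background, whichever was higher. Of the 7 that did not pass, Vegfa had a log2 difference of -0.26 on its brightest probe (limma adjusted p = 0.198), with 3 other probes lower still, and Pdgfa one of 0.26 (0.0559).

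Heat shock genes, which respond to the handling of tissue as immediate early genes do, were fixed as a further list. Of 9 tested, 2 were lower (22.2%), the mitochondrial chaperones Hspd1 (-1.18, limma adjusted p = 6.16e-04) and Hspe1 (-0.63, 0.0205, and -1.41 on its other probe). The inducible gene Hspa1b had a log2 difference of -0.21 (0.728) and Dnajb1 one of 0.30 (0.0560). Without control array 2 the count was 1. The part of tissue handling in the members' differences was not tested.

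**Figure D4:**
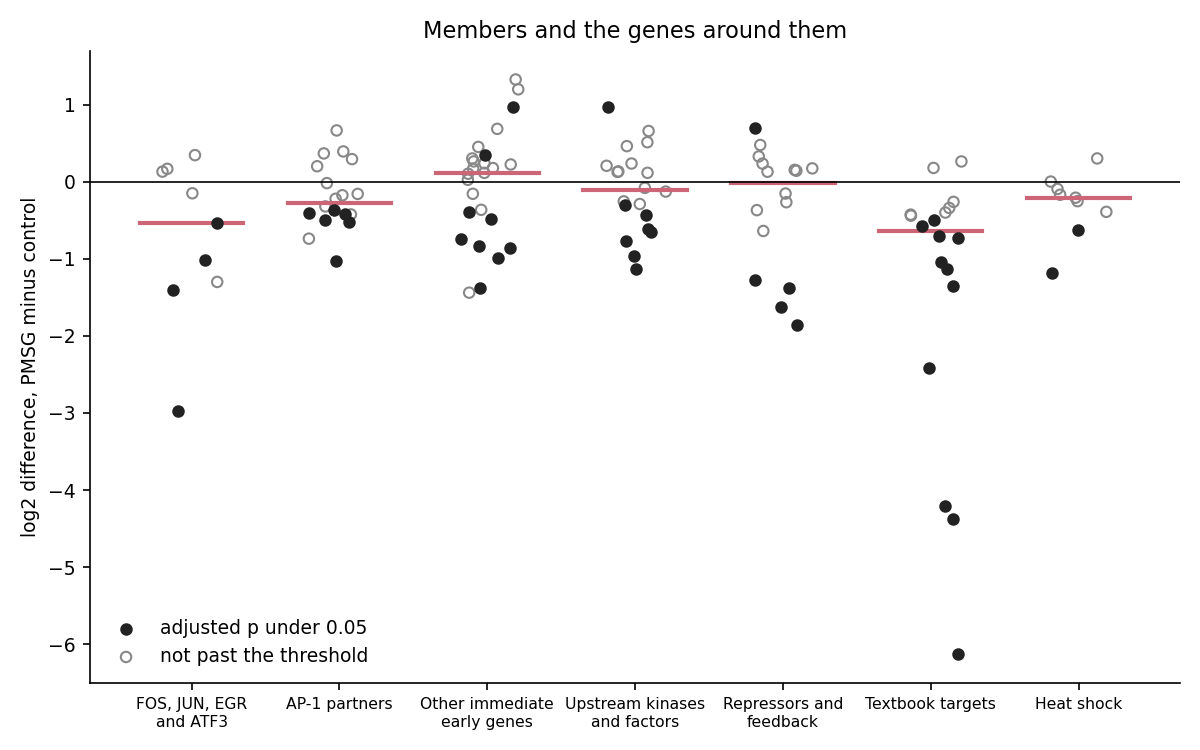
Log2 difference, PMSG-labelled minus control-labelled arrays, of the 9 members and of the genes in 6 lists; black points passed the threshold, open points did not, and red bars are medians. Called points lie mostly below 0, and the textbook targets hold the lowest values, drawn at their fitted difference although Ereg and Mmp3 are bounds.

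Other immediate early genes did not move as a group. Of 25 tested, 7 were lower, 2 were higher (36% called) and 16 did not pass, with a median of 0.11, the same as over all probes. Cyr61, encoding a matrix protein of the CCN family, was lower, by -1.38 on the log2 scale (limma adjusted p = 5.25e-04), whereas Ctgf of the same family was higher by 0.96 (limma adjusted p = 0.00436). Csrnp1 differed by -0.99 (limma adjusted p = 0.00501) on its brighter probe and by 0.15 on another. Ier2 was also lower, with a log2 difference of -0.86 (limma adjusted p = 6.66e-04). Egr3, an EGR relative, did not pass (log2 difference 0.17, limma adjusted p = 0.596, and 0.61 on its other probe).

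PMSG array 2 stood apart for several of these genes. It was the highest of its label for 16 of the 25, against 17.2% of all genes tested. The 5 genes whose SD exceeded 0.5 in the PMSG label were singled out after their values had been seen. Egr4, an EGR relative, was at -5.72, -6.26, -5.51 and -5.28 in arrays labelled control and at -5.99, -0.47, -6.41 and -5.12 in arrays labelled PMSG. Array 2 was therefore far above all other arrays, at an unscaled signal of 740.4 against 9.06 to 31.2, and its 2 spots differed by an SD of 0.01. Nr4a3, an orphan nuclear receptor, was at -4.93, 0.63, -3.55 and -1.62 in arrays labelled PMSG against -4.01 to -3.52 in the control label, but on its other probe array 2 was not the highest. Nr4a1, a related receptor, stood at 0.27, 2.37, -0.06 and 0.41 in arrays labelled PMSG, where only array 2 lay in the control range of 1.97 to 2.59. Sik1, a kinase induced by cyclic AMP, was also highest on array 2, at 3.03 against at most 1.96 elsewhere, and so was its other probe. None of the 5 passed the threshold, with limma adjusted p-values from 0.0536 for Nr4a1 to 0.484 for Sik1.

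Among the members, array 2 was the highest PMSG-labelled array for Junb, Egr2, Fosl2 and Jund. Without it, 4 of the 9 members were called, and 10 of the 25 other immediate early genes, 9 lower and 1 higher, while 29.6% of all probes were called (14.9% lower).

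**Figure D5:**
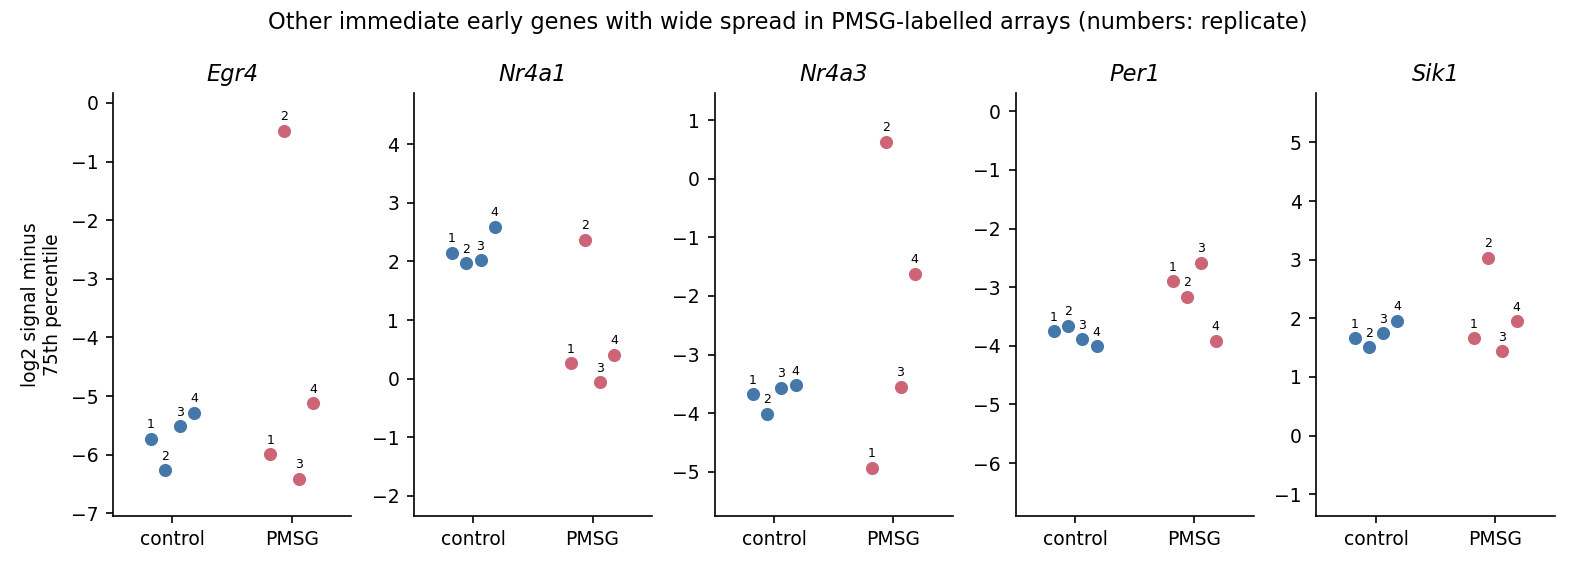
Levels of the 5 other immediate early genes with the widest spread in PMSG-labelled arrays (vertical axes, log2 signal minus the array's 75th percentile, the same span in all panels); numbers are replicates. Array 2 of the PMSG label is far above the other arrays for Egr4 and Nr4a3 and the highest of its label for Nr4a1 and Sik1, while for Per1 array 4 is the lowest of its label.

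Genes with the profile most like a member's over the 8 arrays were found by the root mean square difference between profiles, each centred on its own mean, among 21917 other genes. Nearest to Egr1 were Angpt4 (0.163), the transcript TC590378 (0.196) and Kcnmb4 (0.202), with log2 differences of -1.02, -0.79 and -0.96. Their likeness is close, since the median over all genes was 0.711. Nearest to Fos were the transcript ENSRNOT00000036601 (0.0908), Tbc1d13 (0.105) and an unnamed probe (0.156), where the median was 0.425 and Fos itself varied by 0.301. The nearest of so many genes will be close in any profile of 8 values.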

How the data were processed

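The authors' spot intensity values come from Agilent Feature Extraction 11.5.1.1, per the file headers, with detrending and background subtraction within the array and surrogates for dim spots. The deposited table of log2 values matched its own array's scanner values, as log2 signal minus roughly the 75th percentile; its column medians ran from -3.21 to -2.82, and how it was scaled is not stated. Columns not used numbered 0. Total RNA (500 ng) was labelled with Cy3, per the labels' protocols.

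Control and outlier spots were dropped, log2 processed signals averaged per probe (30350 of 30367 probes kept, 58717 spots, 0 saturated) and the array's 75th percentile subtracted. Probes with at least 0.5 of their spots well above background on 4 or more of 8 arrays were tested (25303) with limma 3.58.1 in R 4.3.3, without covariates; 11475 had an unadjusted p under 0.05. The brightest probe stood for a gene. The number of arrays limits the precision. The fit (limma) was tested on simulated data. Motifs were matched to RefSeq windows.

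Members and lists were chosen with earlier results of these data known. Named genes are the members, the 3 per list with the largest called difference without overlap, and the 3 nearest in profile to Fos and Egr1. In all, 1 gene this rule names is not reported here. Others named were chosen after their values were seen. Listed Cyp19a1 was not matched, Hspa1a was matched to Hspa1b, and Akr1c18 to Akr1c3, through RefSeq. Alternatives covered scaling, background, filter, blocks, array weights, probe choice and each array left out; differences within a slide row, and between members after normexp, were added after seeing the data.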

Additional observations from a re-analysis of the deposited data

Results flagged for a closer look

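Among 66 groups of 4 values examined, for members and named genes, 5 had 1 array far from the other 3, where chance alone gives about 1 in 20, here 3.3. No member was among them. In arrays labelled PMSG, array 4 stood apart for Dusp6, at 1.35 against 1.81 to 1.85, for Hspe1, at 5.43 against 5.98 to 6.03, and for RGD1560833, at -4.83 against -5.16 to -5.12. PMSG array 2 stood apart for Mmp3, at -6.89 against -8.59 to -8.32, on a probe not well above background in that label. In arrays labelled control, array 2 stood apart for Dusp1, at -2.94 against -2.50 to -2.42.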

How the results depend on the processing

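Egr2, Junb and both Egr1 probes kept their direction and their call under all alternatives tried (18 for a gene, 17 for the dimmer Egr1 probe). Log2 differences ran from -3.21 to -1.27 for Egr2, from -1.64 to -1.20 for Junb and from -1.18 to -0.85 for Egr1, with limma adjusted p at most 0.0478. Fosl2 lost its call under 6 of 18 and its dimmer probe passed under quantile normalization (-0.42, limma adjusted p = 0.0268). The members called numbered 3 to 5 when 1 array was left out. Signs turned for Fos with array weights (0.0275) and, with median centring, for Jun (-0.000577) and Jund (-0.0366). The count for repressors and feedback inhibitors, 5, was 2 after normexp background correction and 3 for probes well above background on all 8 arrays. Without 1 array it was 3 to 6, and the count for heat shock genes was 1 to 2. The cause was not tested. The replicate block gave 3 called members (Fosl2 lost, limma adjusted p = 0.0769) and 7346 probes, against 8658. Replicate numbers were not treated as pairs in the main fit. Same-numbered arrays deviated from their group means with correlations of 0.04, 0.04, 0.18 and -0.02. These values show no strong shared deviation, but they cannot exclude a pairing by design, which need not leave one. The share of calls that were higher in PMSG, 51.4%, was 46.2% with quantile normalization, 34.5% with median centring, 57.2% with array weights and 61.3% without PMSG array 4; the scalings move the median difference of all probes from 0.11 to 0.03 and -0.05. Over 17 alternatives, 6552 to 11382 probes were called, fewest with control array 4 left out and most with PMSG array 4 left out. Signals near background limit Fosl1 and the size for Egr2.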
